A study of Mus musculus with 16 samples.

Results

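The 9 genes described here make, bind, take up, sense and break down retinoic acid, and they were chosen by name from the 30451 genes of a table of single-cell RNA sequencing of whole mouse testes at postnatal day 2 (P2). *Aldh1a1* and *Aldh1a2* encode enzymes of synthesis, *Cyp26b1* encodes an enzyme of breakdown, *Stra6* encodes a receptor for the retinol carrier of blood, *Crabp1* and *Crabp2* encode binding proteins of the cytoplasm, and *Rara*, *Rarb* and *Rarg* encode the nuclear receptors. All 9 were rows of the table, and 42 other genes of the pathway were read beside them. Testes came from wild-type (WT) mice and from mice with a germ cell-specific knockout of the RNA helicase gene *Ddx5*, made by crossing floxed *Ddx5* mice with mice whose Cre is driven by the *Mvh* promoter, so that the somatic cells that carry most of these genes were not the target of the deletion. The labels name no strain, litter or number of animals.

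Retinoic acid is made from retinol, first to retinaldehyde by retinol dehydrogenases and then to the acid by retinaldehyde dehydrogenases such as ALDH1A1 and ALDH1A2. It enters the nucleus and binds a retinoic acid receptor (RAR), which sits on DNA together with a retinoid X receptor (RXR) at paired copies of a short motif. In the fetal testis CYP26B1 of somatic cells removes retinoic acid and thereby keeps male germ cells from entering meiosis, of which *Stra8* is an early gene, and after birth retinoic acid is known to drive the differentiation of spermatogonia.

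Direct repeats of the receptor motif were looked for in the RefSeq promoter windows of build GRCm38.p6, which run from 250 bases before to 50 bases after each start, because *Rarb* and *Cyp26a1* are textbook targets of the receptors. The half-site searched was AGGTCA, or else AGTTCA, or else GGGTCA, or else GGTTCA, as direct repeats spaced by 5 bases (DR5) or by 2 bases (DR2) and on both strands. A DR5 was found in 32 of 32851 windows (0.0974%) and a DR2 in 88 (0.268%). Of the 9 genes, 8 had a window, with 16 windows in all, and Crabp2 had none. The only match among them was the DR5 of *Rarb*, from 53 to 37 bases before its start. Among the 31 of 44 other listed genes of the pathway that had a window the only DR5 was in *Cyp26a1*, from 32 to 16 bases before its start. Both are printed on the strand that reads as the repeat, with the half-sites in capitals and 6 bases on either side. *Rarb* is chr14:16575507-16575535 on the minus strand, the strand of the gene, and *Cyp26a1* is chr19:37697770-37697798 on the minus strand, opposite to the gene.
Rarb: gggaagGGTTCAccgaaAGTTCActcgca
Cyp26a1: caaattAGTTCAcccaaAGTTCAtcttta
The 2 genes with this repeat were among those with the fewest transcripts. *Rarb* had 53 unique molecular identifiers (UMIs, each counting an mRNA molecule once) in the 6329 WT cells, and *Cyp26a1* had at most 7 UMIs in any somatic group below. Both were highest in WT germ cells, *Cyp26a1* with 23 UMIs at 5.32 CPM (UMIs of the gene scaled to all UMIs of the same cells, as counts per 1000000).

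The table held 6763 barcodes with 84263163 UMIs for the suffix taken as WT and 5423 barcodes with 67558106 UMIs for the other. The labels number 8 libraries per genotype, but the barcodes carry no library number, so that each genotype counts as 1 library, no test was run between genotypes and no p-value is given. All intervals are 95% intervals of counting error: exact Poisson for sums, Clopper-Pearson for shares and exact conditional binomial for ratios. No label pairs a suffix with a genotype, and the lanes in the labels do not either, since both genotypes were partly run in the same lane. The suffix with more cells was taken as WT because the study kept more WT than knockout cells by the same filter. In the suffix taken as WT there were 488 *GFP* and 0 *CRE* UMIs, and in the other 22 and 20. The study also kept mice with an *Oct4*-GFP transgene, and the labels do not say which testes carried it. The study reported lower *Ddx5* mRNA in sorted knockout gonocytes by single-cell qRT-PCR. In this table *Ddx5* itself stood at 1152 CPM in 125 WT germ cells and at 1736 CPM in only 12 germ cells of the other library, which goes against a loss of its transcript. The reads lie at the 3′ end of mRNAs and the deleted exons are not given in the sources used here, so this does not check the deletion, and the second library is called the library labelled knockout throughout. Whatever else differed between the libraries cannot be told apart from genotype, and 12 barcode sequences occurred in both libraries.

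A cell was kept if it had 2000 genes or more and mitochondrial UMIs made up 10% or less, which left 6329 in WT and 4950 in the library labelled knockout, and in what follows a pair of values is always in that order. Cell types were gated on marker genes: Sertoli cells on *Amh* (2256 and 1635 cells), Leydig cells on *Cyp11a1*, *Cyp17a1* and *Hsd3b1* (177 and 143), peritubular myoid cells on *Acta2* and *Myh11* (764 and 524), stroma on *Pdgfra* without *Amh* (3590 and 3005) and germ cells on 3 of 4 genes *Dazl*, *Ddx4*, *Mael* and *Stk31* (125 and 12). Within the stroma, a *Tbata* subset (798 and 535 cells) and a *Lum*/*Dpt* subset (938 and 1001) were set apart. Gates overlapped: 1152 of 1288 myoid cells also passed the stroma gate, 73 of 320 Leydig cells did, and 39 of 137 germ cells, all of them WT, also passed the Sertoli gate. The 9 Sertoli markers summed to 7244 and 6518 CPM in the Sertoli gate and the 6 Leydig markers to 23528 and 24082 CPM in the Leydig gate. No levels are given for an endothelial gate, since 368 of its 427 cells passed the stroma gate and *Cdh5*, one of its genes, had a UMI in 62.3% and 65.2% of stroma cells. It was kept only as a cell group in the likeness lists at the end. Macrophages (31 and 23 cells, gated on *C1qa*, *C1qb* and *C1qc*) served as cells that should lack most of the 9 genes. For values that cells of several gates touch most, the value in cells that passed a single gate is given beside them.

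*Cyp26b1* (chr6:84571414-84593908, minus strand, GENCODE M21 on GRCm38) was highest in the *Tbata* stroma, with 236 CPM (226 to 246) and 251 CPM (239 to 264). Leydig cells followed with 183 CPM (168 to 199) and 221 CPM (204 to 238), so that the *Tbata* stroma lay 1.29-fold (1.17 to 1.42) and 1.14-fold (1.04 to 1.25) above them. Myoid cells had 57.8 and 85.2 CPM, Sertoli cells 24.3 and 20.7 CPM, and the *Lum*/*Dpt* stroma 17.5 and 16.7 CPM. In cells of a single gate the *Tbata* stroma had 266 and 270.0 CPM and Leydig cells 133 CPM (117 to 150.0) and 217 CPM (196 to 240.2), which puts the *Tbata* stroma 2.01-fold (1.76 to 2.30) and 1.24-fold (1.11 to 1.39) higher. Myoid cells of a single gate, 54 and 25 cells with 14 and 16 UMIs, had 24.9 and 63.8 CPM against 24.4 and 19.3 CPM in Sertoli cells. The ratio of myoid to Sertoli cells was 1.02 (0.555 to 1.72) and 3.30 (1.88 to 5.42), so that in WT these 2 groups did not differ beyond counting error. Germ cells had 10.4 and 28.1 CPM, but 3.17 and 3.38 CPM in the 66 and 8 germ cells of a single gate. Macrophages had 3.52 and 53.3 CPM, the latter from 28 UMIs of which 19 lay in 1 cell, and 6.43 and 4.07 CPM in those of a single gate. The stroma as a whole, counted with 1 class per cell, held 64.2% (62.9 to 65.4) and 58.9% (57.5 to 60.3) of all *Cyp26b1* UMIs. In the Leydig gate the level differed between cells with and without *Pdgfra*, a split made after the values were seen: 45 WT cells with *Pdgfra* had 318 CPM and 132 without had 126 CPM, against 253 CPM in 33 cells and 207 CPM in 110 cells of the library labelled knockout.

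*Aldh1a1* (chr19:20492715-20643465, plus strand) had most of its transcripts in Leydig and Sertoli cells. Leydig cells stood at 3564 CPM (3497 to 3632) and 3422 CPM (3355 to 3491), and Sertoli cells at 679.9 CPM (671 to 688) and 644 CPM (635 to 653), which puts Leydig cells 5.24-fold (5.12 to 5.36) and 5.31-fold (5.19 to 5.45) higher. Sertoli cells were far more numerous and held 62.1% and 58.7% of its UMIs, and Leydig cells, 2.78% and 2.89% of the cells, held 28.0% and 33.1%. Myoid cells had 127 and 108 CPM, the *Tbata* stroma 92.0 and 129 CPM and the *Lum*/*Dpt* stroma 36.2 and 42.6 CPM. In cells of a single gate these last values were 63.9 and 47.9, 85.0 and 101, and 20.2 and 18.8 CPM, while macrophages had 195 and 122 CPM, from 8 and 6 cells with a UMI, and 6.43 and 12.2 CPM in those of a single gate. *Aldh1a7*, a close relative of *Aldh1a1* whose reads could be split with it, was also highest in Leydig cells, at 27.6 and 22.3 CPM.

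*Aldh1a2* (chr9:71215789-71296243, plus strand), the retinaldehyde dehydrogenase of the early embryo, was lower. Sertoli cells held 66.1% and 71.6% of its UMIs. Germ cells had 28.0 CPM (23.2 to 33.4) and 30.2 CPM (16.5 to 50.7), the latter from 14 UMIs in 12 cells, and Sertoli cells 25.6 CPM (24.0 to 27.3) and 22.2 CPM (20.5 to 24.0). The ratio of germ to Sertoli cells was 1.09 (0.897 to 1.32) and 1.36 (0.739 to 2.30), so that these neighbours did not differ beyond counting error. In germ cells of a single gate the level was 31.2 and 16.9 CPM. The *Lum*/*Dpt* stroma had 13.7 and 8.72 CPM, Leydig cells 5.64 and 4.17 CPM, the *Tbata* stroma 3.67 and 3.77 CPM and myoid cells 1.99 and 2.81 CPM, with 0 UMIs in the 54 and 25 myoid cells of a single gate. Sertoli cells held most UMIs of both synthesis genes, and the level was highest in Leydig cells for *Aldh1a1* and in germ and Sertoli cells for *Aldh1a2*.

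*Stra6* (chr9:58063788-58153996, plus strand), which overlaps *Ccdc33* on the other strand, was highest in Sertoli cells, at 47.7 and 34.3 CPM, or 49.7 CPM (47.4 to 52.1) and 34.9 CPM (32.8 to 37.2) in those of a single gate. The *Tbata* stroma followed with 23.7 and 22.1 CPM, and Sertoli cells were 2.02-fold (1.75 to 2.34) and 1.55-fold (1.30 to 1.86) above it. Myoid cells had 110 and 66 UMIs, with intervals of 9.01 to 13.2 and 7.17 to 11.8 CPM, but 1 and 2 UMIs in those of a single gate, and the *Lum*/*Dpt* stroma had 7.57 and 7.18 CPM. Leydig cells, the richest in *Aldh1a1*, had 0.996 and 2.44 CPM of *Stra6*, from 3 and 7 UMIs. Germ cells had 9.25 CPM in WT, 2.71 CPM in those of a single gate, and 0 UMIs in the 12 cells of the library labelled knockout.

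*Crabp1* (chr9:54764748-54773110, plus strand) was a germ cell transcript in WT: 604 of its 674 UMIs, or 89.6% (87.1 to 91.8), came from the 125 germ cells, which were 1.98% of the cells. Its level there was 139.7 CPM (129 to 151), with a UMI in 110 of the 125 cells and up to 16 UMIs in a cell. By the number of germ markers with a UMI, WT had 144 CPM in 113 cells with all 4, 41.7 CPM in 12 cells with 3, 0 UMIs in 5 cells with 2, 2.25 CPM in 175 cells with 1 and 0.844 CPM in 6024 cells with 0. The library labelled knockout had 36.7 CPM (21.4 to 58.8) in its 12 germ cells, which held 17 of 64 UMIs or 26.6% (16.3 to 39.1). There 10 cells with all 4 markers had 34.9 CPM (19.5 to 57.5), 2 cells with 3 had 60.6 CPM (7.34 to 219) from 2 UMIs, 64 cells with 1 had 0 UMIs and 4874 cells with 0 had 0.726 CPM. Its other UMIs lay mostly in the stroma and myoid cells, with 48.4% and 23.4% of the total. *Crabp2* (chr3:87948666-87953376, plus strand) was low everywhere, with 5.55 and 6.48 CPM in germ cells, from 24 and 3 UMIs, and at most 3.00 CPM in any other group. The stroma held 51.4% (41.7 to 61.0) and 71.6% (59.3 to 82.0) of its 111 and 67 UMIs.

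**Figure D1:**
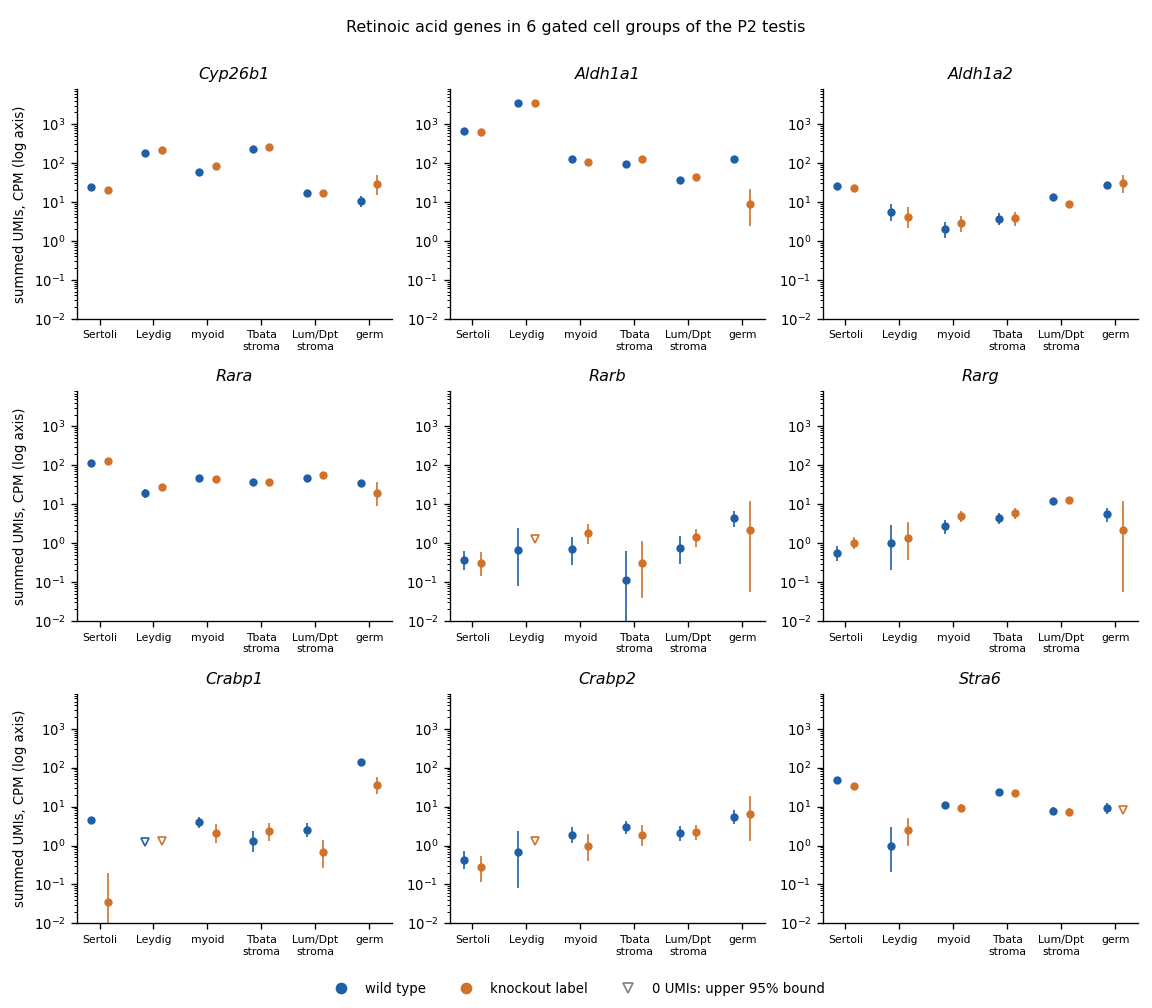
Level of each of the 9 genes in 6 gated cell groups. The y axis is the summed UMI count as CPM on a log axis, points are WT (blue) and the library labelled knockout (orange), bars are exact 95% Poisson intervals, and open triangles give the upper bound where a group had 0 UMIs. *Aldh1a1* peaks in Leydig cells at 3564 and 3422 CPM, *Cyp26b1* in the *Tbata* stroma at 236 and 251 CPM and *Crabp1* in germ cells at 139.7 and 36.7 CPM.

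Among the receptors, *Rara* (chr11:98927818-98974942, plus strand) was read in every group and was highest in Sertoli cells, at 117 CPM (114 to 121) and 126 CPM (122 to 130.0). The next group, the *Lum*/*Dpt* stroma, had 48.5 and 56.6 CPM, and Sertoli cells were 2.42-fold (2.20 to 2.67) and 2.22-fold (2.04 to 2.43) above it. Myoid cells had 48.2 and 44.5 CPM, the *Tbata* stroma 37.7 and 38.2 CPM, germ cells 34.7 and 19.4 CPM and Leydig cells 19.6 and 27.1 CPM. In germ cells of a single gate *Rara* was 17.6 and 16.9 CPM. Macrophages had 17.6 and 38.1 CPM, from 10 and 20 UMIs, or 12.9 and 28.5 CPM in those of a single gate, so the Leydig and germ values lay near theirs.

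*Rarg* (chr15:102234938-102257517, minus strand) had another order. It was highest in the *Lum*/*Dpt* stroma, at 12.1 CPM (9.99 to 14.5) and 13.2 CPM (11.1 to 15.6), and low in Sertoli cells, at 0.568 CPM (0.352 to 0.869) and 1.04 CPM (0.699 to 1.48), and in Leydig cells, at 0.996 and 1.39 CPM. The ratio of Leydig to Sertoli cells was 1.75 (0.335 to 5.87) and 1.34 (0.344 to 3.81), so that these 2 groups did not differ beyond counting error. The stroma held 75.1% (70.2 to 79.6) and 75.6% (70.6 to 80.1) of its 342 and 336 UMIs. WT germ cells had 5.55 CPM, or 7.69 CPM in those of a single gate, and the library labelled knockout had 1 UMI in its germ cells. *Rarb* (chr14:16430839-16819156, minus strand), which overlaps *Top2b* on the other strand, had 53 and 36 UMIs in all cells. WT germ cells held 19 of the 53, at 4.40 CPM (2.65 to 6.86), which was 5.97-fold (2.40 to 16.8) above the next group, and no other group of either library passed 1.83 CPM except the germ cells of the library labelled knockout, with 1 UMI.

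**Figure D2:**
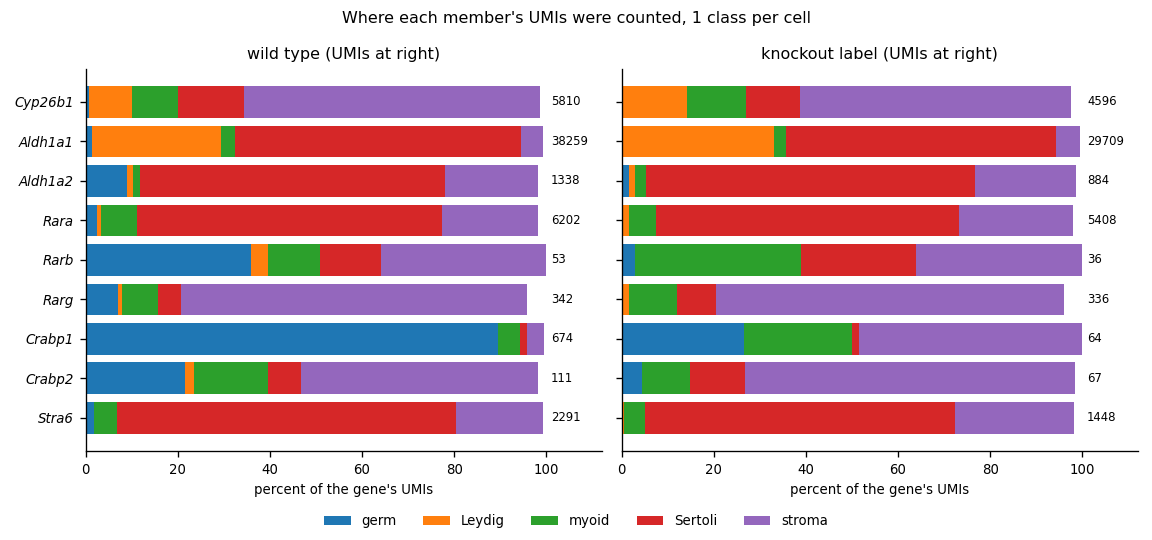
Share of each gene's UMIs by cell class, with each cell in 1 class (germ, Leydig, myoid, Sertoli, stroma in that order of priority), for WT (left) and the library labelled knockout (right). The x axis is the percent of the gene's UMIs in kept cells, the number at the end of a bar is their sum, and the part missing to 100% lay in cells of no class. The germ class holds 89.6% of *Crabp1* UMIs in WT and 26.6% in the library labelled knockout, and the stroma holds 75.1% and 75.6% of *Rarg*.

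The other 42 genes of the pathway showed which groups held the other steps. For retinol oxidation, *Adh1* reached 1169 and 1113 CPM in Leydig cells and at most 17.3 CPM in Sertoli and germ cells, and *Rdh10*, which makes retinaldehyde in the embryo, was highest in Sertoli cells at 35.6 and 29.9 CPM. *Dhrs3*, which turns retinaldehyde back into retinol, was highest in macrophages at 151 and 158 CPM and had 61.8 and 72.7 CPM in Leydig cells. *Fabp5*, whose protein also binds retinoic acid, was highest in macrophages at 694 and 2021 CPM, followed by Sertoli cells at 288 and 212 CPM. The partner receptor *Rxrb* stood between 28.7 and 39.6 CPM in the 4 somatic gates of both libraries, and *Rxra* had 40.4 and 53.3 CPM in macrophages and 28.5 and 28.0 CPM in the *Tbata* stroma. The nuclear receptor *Nr2f2* reached 711 and 856 CPM in the stroma, where it is a gene of interstitial cells, against 52.0 and 81.6 CPM in Sertoli cells.

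Between the *Tbata* and the *Lum*/*Dpt* subset, 8 genes had at least 20 UMIs in each library, and 5 of them were at least 2-fold apart in the same direction in both libraries with intervals that left out 1: *Cyp26b1*, *Aldh1a1* and *Stra6* were higher in the *Tbata* subset, and *Aldh1a2* and *Rarg* were lower. Of all 13489 genes compared, 2.16% were higher and 3.04% lower by the same rule. *Cyp26b1* was 13.5-fold (11.5 to 15.9) and 15.1-fold (12.9 to 17.7) higher in the *Tbata* subset, *Stra6* 3.12-fold (2.38 to 4.14) and 3.08-fold (2.31 to 4.14), and *Aldh1a1* 2.54-fold (2.24 to 2.89) and 3.04-fold (2.70 to 3.41). The split by *Tbata* was chosen with earlier results of these data known, so the *Cyp26b1* ratio is a description and no independent finding. For *Aldh1a1*, up to 133 of 344 and 133 of 445 UMIs of the *Lum*/*Dpt* subset lay in 1 cell. In the *Tbata* subset it was up to 33 of 828 and 195 of 824. *Aldh1a2* had a ratio of 0.268 (0.177 to 0.395) and 0.432 (0.264 to 0.684), and *Rarg* of 0.358 (0.242 to 0.519) and 0.451 (0.307 to 0.651). *Rara* was lower by less than the fold, with ratios of 0.777 and 0.674, and *Crabp1* went in opposite directions, at 0.528 (0.241 to 1.10) and 3.51 (1.35 to 10.2). The 6 germ markers moved with *Crabp1*, at a summed 3.00 and 31.2 CPM in the *Tbata* and 29.7 and 1.25 CPM in the *Lum*/*Dpt* subset, and their part in it was not tested.

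In stroma cells of a single gate the same 5 genes were past the fold, and *Aldh1a1* was 4.22-fold (3.57 to 5.01) and 5.38-fold (4.54 to 6.41) higher in the *Tbata* subset. The 6 Leydig markers all had UMIs in both subsets, and summed to 114 and 184 CPM in the *Tbata* subset and to 128 and 199.7 CPM in the *Lum*/*Dpt* subset. The 5 myoid markers were higher in the *Tbata* subset, as *Aldh1a1* was, at 1520.4 and 1467 CPM against 569 and 605 CPM. So were the 9 Sertoli markers, 8 of them with UMIs, at 122 and 108 CPM against 82.6 and 62.2 CPM. The part of each of these lists in the ratios of *Aldh1a1* and *Stra6* was not tested. Cells of a single gate leave out those of the myoid gate, but 0 cells pass both the Sertoli and the stroma gate. In the library labelled knockout the ratio of *Aldh1a1* was 6.66 (5.69 to 7.82) without cells called doublets and 1.82 (1.56 to 2.14), under the fold, with stricter subsets. With a pseudocount of 10 CPM, *Cyp26b1* and *Aldh1a1* stayed past the fold and the other 3 did not. Of the 42 other genes of the pathway, 27 had enough UMIs and 1 was higher, *Aldh1a7*, at 4.86-fold (1.81 to 16.4) and 4.01-fold (1.77 to 9.89), and 1 lower, *Nr2f1*, an orphan nuclear receptor, at 0.344 (0.271 to 0.433) and 0.390 (0.296 to 0.509). Stroma cells with markers of both subsets lay between them for *Cyp26b1*, with 80.1 and 62.4 CPM in 385 and 308 cells, and those with neither had 119 and 117 CPM.

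**Figure D3:**
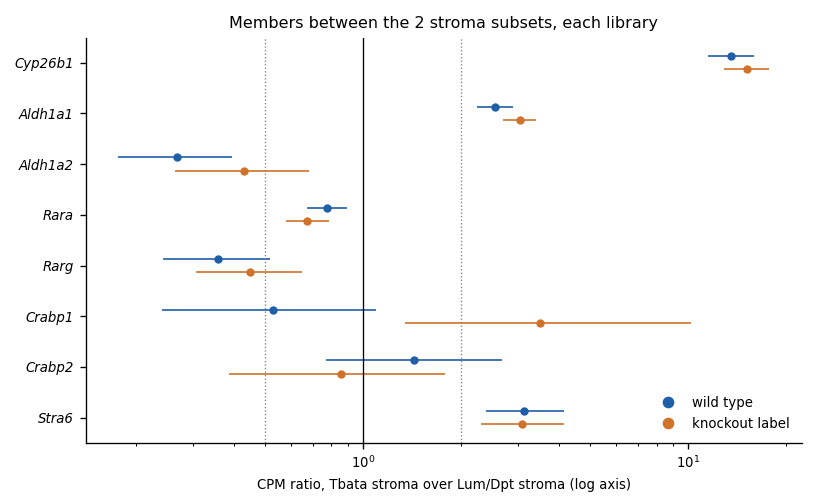
Ratio of the *Tbata* to the *Lum*/*Dpt* stroma for the 8 genes with enough UMIs. The x axis is the ratio of CPM on a log axis, bars are exact conditional binomial 95% intervals, the solid line is no difference and the dotted lines are 2-fold. *Cyp26b1* stands apart at 13.5 and 15.1, and *Aldh1a2* and *Rarg* lie to the left of the lower dotted line in both libraries.

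*Cyp26b1* was not read in all cells of the *Tbata* subset. With each cell thinned to 5000 UMIs, which left out 6 and 8 shallower cells of this subset, 48.9% and 47.2% of its cells had a *Cyp26b1* UMI, and before thinning 498 of 798 and 329 of 535 cells did. The share was 5.69% and 5.30% in the *Lum*/*Dpt* subset and 3.33% and 4.35% in macrophages, at median depths of 10314 and 10664 UMIs in the *Tbata* subset, 9378 and 9456 in the *Lum*/*Dpt* subset and 17546 and 22889 in macrophages. The thinned counts ran from 0 to 14 and from 0 to 9 UMIs a cell in the *Tbata* subset. In Leydig cells the thinned count of *Aldh1a1* had a median of 16 and 14 UMIs, reached 76 and 75 UMIs and was 0 in 0 of 177 and in 2 of 142 cells. In Sertoli cells its median was 3 UMIs in both libraries, with 212 of 2237 and 178 of 1631 cells at 0.

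A UMI of *Cyp26b1* and a UMI of *Aldh1a1* were found together in 308 of 3524 and 240 of 2950 thinned stroma cells, where the product of their shares gives 167 and 113 cells. The stroma gate also held 73 cells of the Leydig gate, which is high in both genes, and their part in these numbers was not tested. Within the *Tbata* subset the numbers were 131 and 92 cells against 105 and 64.7. For *Cyp26b1* with *Aldh1a2* they were 9 and 12 cells against 23.3 and 16.7 over the whole stroma. The count for *Cyp26b1* with *Aldh1a1* in the stroma was above the product in both libraries, with Poisson intervals of 275 to 344 and 211 to 272. That for *Cyp26b1* with *Aldh1a2* was below it in WT, with an interval of 4.12 to 17.1, while in the library labelled knockout the interval held the product. Within the *Tbata* subset, where *Aldh1a2* is lower and *Cyp26b1* higher, the numbers were 4 and 5 cells against 5.86 and 5.20, and both intervals held the product.

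Cells were also divided by *Mki67* and *Top2a*, genes of cycling cells. In the stroma (752 and 566 cycling cells, 2452 and 2142 non-cycling) all 9 genes had enough UMIs, and 1 was at least 1.5-fold higher and 2 lower in cycling cells of both libraries, where 9.05% of 14855 genes were higher and 4.85% lower. *Rarg* was lower at 0.440 (0.312 to 0.608) and 0.360 (0.245 to 0.516). *Aldh1a1* was lower at 0.601 (0.557 to 0.648) and 0.521 (0.475 to 0.571), but in cells of a single gate the WT ratio was 0.931 (0.834 to 1.04). *Crabp1* was higher at 3.63 (2.45 to 5.46) and 8.60 (4.01 to 20.5), from 71 and 32 UMIs in cycling cells, and in cells of a single gate at 2.04 (0.789 to 5.15) and 5.48 (2.21 to 14.8). In WT the germ cell gene *Stra8* moved with it, with 21 UMIs in cycling and 1 in non-cycling stroma cells, while the library labelled knockout had 0 in both, and its part was not tested. Cycling cells were deeper, with medians of 14469.5 and 15106 UMIs against 9237 and 9482, and the part of depth was not tested beyond thinning, which left 1 gene past the fold. In Sertoli cells 0 of the 5 genes with enough UMIs passed in either direction, where 5.44% of 13832 genes were higher and 1.30% lower, and *Aldh1a1* came nearest with ratios of 0.761 (0.741 to 0.782) and 0.744 (0.721 to 0.767).

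The comparison of the genotypes asks whether these genes in somatic or germ cells differ when *Ddx5* is deleted in germ cells. Over the 5 gates, 40 of 45 pairs of gene and gate had at least 20 UMIs, and 8 of them were at least 1.5-fold apart with an interval that left out 1, with 3 higher and 5 lower in the library labelled knockout. By the same rule 8.26% of all genes compared were apart in Sertoli cells, 4.70% in Leydig cells, 3.82% in myoid cells, 5.40% in the stroma and 44.2% in germ cells. Among the members 2 of 9 were apart in Sertoli cells, 0 of 4 in Leydig cells, 2 of 9 in myoid cells, 1 of 9 in the stroma and 3 of 9 in germ cells. In the *Tbata* subset 0 of 8 were apart, where 3.88% of all genes were, and in the *Lum*/*Dpt* subset 2 of 9, where 3.99% were, with *Aldh1a2* at 0.637 (0.482 to 0.840) and *Crabp1* at 0.266 (0.0966 to 0.635). The *Crabp1* ratio came from 24 UMIs in 8 WT cells, up to 10 in a cell, and 7 UMIs in 4 cells. In cells of a single gate its direction turned, with 0.446 CPM from 4 UMIs and 0.712 CPM from 7. The 6 germ markers moved with it in this subset, at 29.7 and 1.25 CPM, and their part was not tested further. The 9 Sertoli markers were lower here as *Aldh1a2* was, at a summed 82.6 and 62.2 CPM. Markers of red cells went the other way, at 7.36 and 896 CPM, as did those of macrophages, at 30.7 and 65.8 CPM, and of Leydig cells, at 128 and 199.7 CPM. The part of these lists in the *Aldh1a2* ratio was not tested.

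Of the abundant somatic transcripts, *Aldh1a1* had a ratio of the library labelled knockout to WT of 0.947 (0.929 to 0.965) in Sertoli cells, 0.960 (0.934 to 0.987) in Leydig cells and 0.968 (0.927 to 1.01) in the stroma, and 1.41 (1.28 to 1.55) in the *Tbata* subset, where 1 cell held 195 of 824 UMIs. The 6 Leydig markers, all with UMIs, stood at 114 and 184 CPM in this subset, and their part was not tested. *Cyp26b1* had 0.898 (0.859 to 0.938) in the stroma, 1.07 (0.998 to 1.14) in its *Tbata* subset and 1.21 (1.07 to 1.35) in Leydig cells. It was 1.47-fold (1.31 to 1.66) higher in myoid cells, just inside the limit, and in cells of a single gate it was past it in Leydig cells, at 1.64 (1.40 to 1.93), and in myoid cells, at 2.57 (1.17 to 5.68) from 14 and 16 UMIs. The 4 red cell markers differed between the libraries in these gates, at a summed 5.31 and 1341 CPM in Leydig cells, 77.5 and 919 CPM in myoid cells, 75.1 and 901 CPM in the stroma and 135 and 295 CPM in Sertoli cells. Their part in these ratios was not tested. *Stra6* in Sertoli cells, at 0.719 (0.665 to 0.778), and *Rara* there, at 1.07 (1.03 to 1.12), were within 1.5-fold. *Rarg*, with 21 and 30 UMIs in Sertoli cells and 27 and 35 in myoid cells, was higher at 1.82 (1.01 to 3.35) and 1.83 (1.07 to 3.14), and at 2.08 (1.10 to 4.03) in Sertoli cells of a single gate. The 8 stroma markers, all with UMIs, moved with it, at a summed 501 and 761 CPM in the Sertoli gate and 2378 and 2604 CPM in the myoid gate, and their part was not tested: 0 cells pass both the Sertoli and the stroma gate, and myoid cells of a single gate held 0 and 2 *Rarg* UMIs. Without cells called doublets the Sertoli ratio was 1.37 (0.316 to 5.97).

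*Crabp1* accounted for 4 of the 5 lower pairs. In the Sertoli gate 166 UMIs in WT stood against 1, a ratio of 0.00769 (0.000194 to 0.0434), in the stroma 135 against 48, and in myoid cells 40 against 15. The 6 germ markers moved with it: in the Sertoli gate all 6 had UMIs in WT and summed to 85.8 CPM, and 2 of 6 had UMIs and summed to 0.795 CPM in the library labelled knockout, where *Mael* was at 0. Among Sertoli cells with no UMI of *Dazl*, *Ddx4*, *Mael* or *Stk31*, a gate chosen after seeing the data, *Crabp1* had 9 UMIs in WT and 1 in the library labelled knockout, a ratio of 0.131 (0.00300 to 0.949). In Sertoli cells of a single gate the ratio was 0.122 (0.00281 to 0.856), from 10 UMIs and 1. In the stroma and myoid cells without these markers the ratios were 0.976 (0.638 to 1.49) and 0.737 (0.366 to 1.43). In the stroma of a single gate the ratio was 1.40 (0.801 to 2.47), the opposite direction.

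In germ cells, where the median log2 ratio of all genes compared was -0.63, *Crabp1* had a ratio of 0.263 (0.152 to 0.424), or 0.265 (0.140 to 0.460) among the 66 and 8 cells of a single gate. *Aldh1a1* was lower at 0.0682 (0.0185 to 0.176) and *Cyp26b1* higher at 2.70 (1.33 to 5.08), the latter from 13 UMIs in 3 cells, 11 of them in 1 cell, and in germ cells of a single gate the *Cyp26b1* ratio was 1.07 (0.0237 to 8.31). The 9 Sertoli markers summed to 1206 CPM in WT germ cells, with UMIs of all 9, and to 69.1 CPM in the library labelled knockout, with UMIs of 6, *Dhh* being at 0. In the 70 WT germ cells without *Amh*, *Aldh1a1* had 16.3 CPM and in the 39 with 3 or more *Amh* UMIs 311 CPM, while in germ cells of a single gate it had 31 UMIs and 1, at a ratio of 0.241 (0.00591 to 1.45). *Stra6* had 40 UMIs against 0, a ratio whose interval reached up to 0.901. With 3 UMIs over the group in place of 0 it was 1.43-fold lower, less than the limit.

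**Figure D4:**
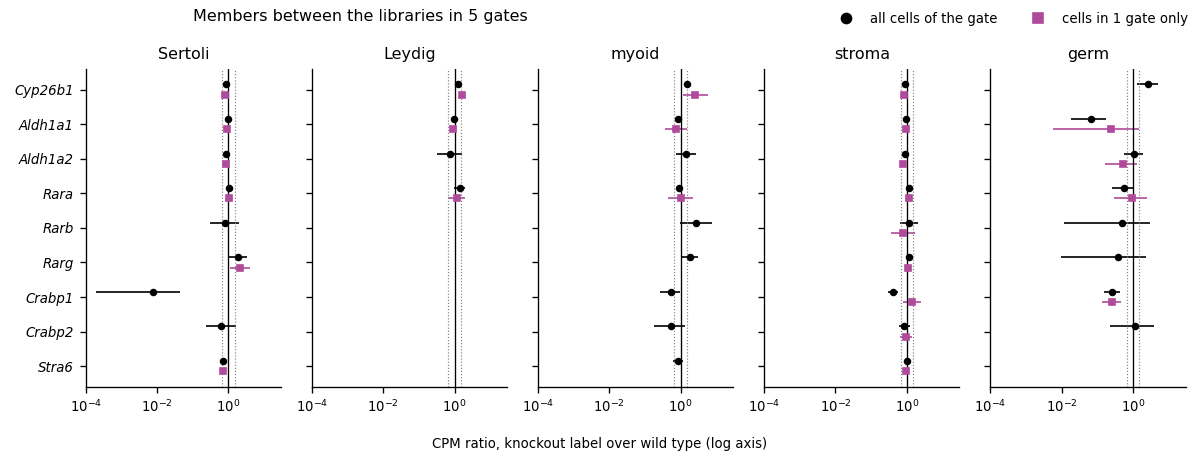
Ratio of the library labelled knockout to WT in 5 gates. The x axis is the ratio of CPM on a log axis, bars are exact conditional binomial 95% intervals, black circles are all cells of a gate and purple squares cells of a single gate, dotted lines are 1.5-fold, and genes under 20 UMIs or at 0 in a library are left out. *Crabp1* in the Sertoli gate lies at 0.00769, and in the stroma it moves from 0.418 to 1.40 in cells of a single gate.

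Of the other genes of the pathway, 145 pairs of gene and gate had enough UMIs, with 5 higher and 11 lower in the library labelled knockout, 8 of these 16 in germ cells. In germ cells that was 8 of 30 genes, where 44.2% of all genes were apart, and it was 5 of 31 in Sertoli cells, 0 of 28 in Leydig cells, 1 of 27 in myoid cells and 2 of 29 in the stroma. *Stra8*, the retinoic acid-responsive gene of meiotic entry, had 251 UMIs in WT germ cells, at 58.1 CPM, and 1 UMI in the library labelled knockout, a ratio of 0.0372 (0.000937 to 0.209). It was not spread evenly, with a UMI in 60 of 125 WT germ cells and up to 23 UMIs in a cell. In germ cells of a single gate the levels were 74.2 and 3.38 CPM, from 164 UMIs and 1. The partner receptor gene *Rxrg* was higher at 5.74 (2.06 to 14.9), from 13 and 8 UMIs.

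Over 16 points, 8 cell groups in each library, the genes whose log2(CPM + 10) was most like that of a member by Pearson's r were listed among 10553 genes, as a description of points that share libraries and cells. For *Aldh1a1* they were *Scarb1* (0.982), *Fdxr* (0.969) and *Pcnt* (0.964), each highest in Leydig cells. For *Rara* they were *Trak1* (0.969), *Slc44a2* (0.964) and *Erbb2* (0.955), highest in Sertoli cells, and for *Crabp1* *Lat* (0.990), *Sycp1* (0.990), a gene of the synaptonemal complex, and *1700018B24Rik* (0.988), highest in germ cells. For *Cyp26b1* the likeness was weaker, with *Actr3b* (0.776), *Gas2* (0.775) and *Pgrmc1* (0.759), each highest in Leydig cells and not in the *Tbata* stroma.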

How the data were processed

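Whole testes at P2 were dissociated and libraries made with a droplet kit that reads the 3′ end of mRNAs. The authors made UMI counts with Cell Ranger 3.1.0 against a reference that also held GFP and CRE, and the counts were deposited as 1 raw, unfiltered table. The submitters' processing notes also name Seurat 3.1.5 and build GRCm38. Cells were filtered as in the study, at 2000 genes and 10% mitochondrial UMIs. Gates were: *Amh* of 3 or more UMIs (Sertoli), 20 or more UMIs of 3 genes (Leydig), *Acta2* of 5 and *Myh11* of 2 or more (myoid), *Pdgfra* of 1 or more with *Amh* of 2 or fewer (stroma), *Tbata* of 1 or more with *Lum* plus *Dpt* of 1 or fewer, *Lum* plus *Dpt* of 2 or more without *Tbata*, cycling cells *Mki67* plus *Top2a* of 3 or more against 0, and macrophages 5 or more UMIs. CPM is summed UMIs of a gene over those of the same cells. Counting a molecule once makes it independent of transcript length, and intervals cover counting error only. A cell may pass several gates. Scrublet (scanpy 1.11.5) marked 4.49% and 5.98% of cells as doublets, which stayed in the main values.

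All 9 members are named. Other pathway genes are named where apart or highest in their role, and likeness lists give the 3 genes of highest r for members that reach 50 CPM. The members, the lists and the gates, with the split of the stroma by *Tbata*, were chosen with earlier results of these data known. *Rbpr2* is listed as *Stra6l*, and 2 of 44 listed genes were not found. Some listed genes are counted but not reported here by name. Ratios were tested on simulated counts. Python 3.11.15, NumPy 2.4.6 and SciPy 1.17.1 were used. Alternatives changed the cell filter, the gates, the scaling, the depth, the minimum of UMIs and the pseudocount. Comparisons of the genotypes have no replicate check.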

Additional observations from a re-analysis of the deposited data

How the results depend on the processing

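No paired analysis was possible because the barcodes carry no library number, and for the same reason no library could be left out. The 5 cell types take the stroma as a whole, so that for *Cyp26b1* the highest of them was Leydig cells. The highest of the 5 cell types was the same in both libraries for all 9 genes, and for 8 or 9 under every alternative run, but in the library labelled knockout germ cells were not apart from the next group for *Rarb* (1 germ cell UMI), *Crabp2* (3 UMIs) and *Aldh1a2*, nor in WT for *Aldh1a2*. The 8 pairs of gene and gate apart between the libraries became 4 in cells of a single gate, of which 2 were among the 8 (*Rarg* in Sertoli cells and *Crabp1* in germ cells) and 2 were new (*Cyp26b1* in Leydig and myoid cells), and 4 after thinning to 5000 UMIs, 4 with a pseudocount of 10 CPM, 5 with 1 class per cell and 5 without cells that had a germ marker, the last 2 alternatives being chosen after seeing the data. They became 6 without called doublets, where *Crabp1* in myoid cells and *Rarg* in Sertoli cells were lost, and 6 with stricter gates, of which 5 were among the 8. The 5 genes apart between the stroma subsets became 4 with stricter subsets, 3 after thinning and 2 with the pseudocount. The 3 genes apart by cell cycle became 1 in cells of a single gate, 1 after thinning, 1 with the pseudocount and 1 with 1 class per cell. The ratio of *Crabp1* between the libraries reversed to 4.49 in myoid cells (0.234 to 265, from 1 and 2 UMIs) and to 1.40 in the stroma in cells of a single gate, and to 1.40 in the stroma with 1 class per cell. Of the 12 genes most like a member, 1 was shared with the list by Spearman's rho. In cells of a single gate and after thinning there are fewer UMIs, and a pseudocount shrinks ratios of low genes; beyond this the cause was not tested. All 9 genes had fewer than 20 UMIs in the 12 germ cells of the library labelled knockout, where 3 were apart from WT and a difference of 1.5-fold was not detectable at this depth.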
